A study of Homo sapiens with 8 samples.

Results

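The urokinase system of BT-549, an established triple negative breast cancer (TNBC) cell line, was described through 5 genes, PLAU, PLAUR, PLAT, SERPINE2 and SERPINB2, out of 23228 genes listed by symbol in the RNA-seq counts. The genes were chosen by symbol with results from these same libraries already known, so their differences between groups are given here as a description. The text states where a member passed the thresholds set for all tested genes. Because of that choice, passing them is not support for a difference, and no p-value is given for a member. All 8 libraries came from the same cell line in RPMI with 10% FBS, with 2 libraries in each of 4 groups treated for 24 h. The groups received vehicle (DMSO), the LIFR inhibitor EC359 at 100 nM, the histone deacetylase inhibitor (HDACi) vorinostat at 10 µM, or EC359 and vorinostat together, called the combination. The comparisons ask what each drug did alone and what EC359 changed in cells that also received HDACi. A cell line is a single model of TNBC, and nothing in the labels says whether the libraries of a group came from separate cultures, so the errors measure only the spread between these libraries.

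Plasmin, the protease that dissolves fibrin and degrades matrix, is cut from plasminogen by the serine proteases urokinase (PLAU) and tissue plasminogen activator (PLAT). Urokinase works at the cell surface, held by its GPI-anchored receptor PLAUR. Serpins are suicide inhibitors that trap such proteases. SERPINB2 inhibits urokinase, and SERPINE2 inhibits thrombin and plasminogen activators. In breast cancer, urokinase is known as a marker of invasion and prognosis.

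The RefSeq promoter table held 4 of the 5 genes, and PLAT was not among them. Short motifs were searched on both strands of the 250 bases before each start. These were TGANTCA, the AP-1 site, GGGCGG, the Sp1 site, CCGGAA, an Ets core, CACGTG, an E-box, and TATAAA, the TATA box. The following stretches of PLAU, PLAUR and SERPINB2 are shown as the places of the matches. They are from RefSeq on GRCh38.p14, written 5′ to 3′ on the strand of the gene, with each match in capitals.
PLAU, chr10:73910882-73911103, plus strand: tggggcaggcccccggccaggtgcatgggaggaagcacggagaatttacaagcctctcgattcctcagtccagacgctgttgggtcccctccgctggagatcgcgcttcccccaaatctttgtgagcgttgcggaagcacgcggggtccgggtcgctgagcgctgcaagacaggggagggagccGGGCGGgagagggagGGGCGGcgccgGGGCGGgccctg
PLAUR, chr19:43670337-43670366, minus strand: tcacaactccaTGAGTCAgggccgagccag
SERPINB2, chr18:63887455-63887704, plus strand: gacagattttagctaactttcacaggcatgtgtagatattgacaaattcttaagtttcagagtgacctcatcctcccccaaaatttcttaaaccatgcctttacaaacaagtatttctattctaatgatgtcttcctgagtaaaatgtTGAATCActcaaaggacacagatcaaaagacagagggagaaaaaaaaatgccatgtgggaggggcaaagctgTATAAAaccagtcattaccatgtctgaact
The PLAU window at the downstream of its 2 starts held 3 matches to GGGCGG, a motif found in 42.6% of all 35116 windows of this length, and the window at its upstream start held none of the 5 motifs. PLAUR and SERPINB2 each held 1 match to TGANTCA, found in 6.57% of all windows. All 250 bases of the PLAUR window lay within exons of PLAUR annotated by GENCODE, so only 30 bases around its match are shown. The SERPINB2 window also held TATAAA, 30 bases before the start, as did 10.7% of all windows. The SERPINE2 windows held GGGCGG at both starts and CACGTG at its downstream start, with CACGTG found in 6.34% of all windows. No window of these genes held CCGGAA, found in 14.5% of all windows. A match of letters is not a measured binding site.

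A library held from 19069450 to 24759041 reads counted on genes. Read counts were scaled by the TMM method and are given as normalized CPM. Of the 23228 genes, 13694 passed the filter on low counts, all 5 members among them. The labelled cell type was checked against its markers. VIM, a mesenchymal marker, lay at 2056 and 2166 CPM under vehicle and at 9309 and 9442 CPM under the combination. Of the other mesenchymal markers, CDH2 lay at 24.64 and 22.75 CPM under vehicle and at 33.98 and 34.27 CPM under the combination. FN1 lay at 2831 and 2396 CPM under vehicle and at 4384 and 4588 CPM under the combination. These markers did not share a direction under vorinostat, with log2 fold changes of 1.22 for VIM, 0.48 for CDH2 and -0.42 for FN1. EPCAM, CDH1 and KRT18, which mark epithelium, reached at most 8.02 CPM. EPCAM rose under vorinostat (log2 fold change 4.22, edgeR adjusted p = 0.0045), and the 2 combination libraries differed, with 9 and 70 reads of EPCAM and 14 and 157 of KRT18. PTPRC and CD3E of leukocytes and PECAM1 and CDH5 of endothelium reached at most 0.708 CPM. Of the receptors that define the triple negative class, ESR1 reached at most 1.02 CPM and PGR at most 0.0511 CPM, while ERBB2 was read at 96.1 and 102 CPM under vehicle and at 12.03 to 15.84 CPM in the libraries with vorinostat. VIM, FN1, ERBB2 and EPCAM thus differed between the groups, and their part in the results below was not tested. The 2 EC359 libraries differed more from each other than those of any other group (SD of the log2 difference across genes 0.563, against 0.312 to 0.448 elsewhere). Between EC359 and vehicle 502 genes were called, against 924 without EC359 replicate 2 and 298 without vehicle replicate 2. Of the reference genes, GAPDH had a log2 fold change of 0.80 in vorinostat against vehicle and of 0.38 in the combination against vehicle. In the latter TBP had 0.11, while ACTB fell by 1.06.

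PLAU, which encodes urokinase, rose under EC359 and fell under vorinostat, and in the combination it was again below vehicle. On GRCh37, which is hg19, the gene spans chromosome 10 from 75668935 to 75677254. Its normalized CPM was 57.1 and 60.7 under vehicle, 227.5 and 249.4 under EC359, 25.9 and 29.1 under vorinostat, and 22.8 and 24.97 under the combination. In bulk RNA of a culture, fewer cells with a transcript and less RNA per cell cannot be told apart. Every group was separate from the others, in the order EC359, vehicle, vorinostat, combination, but the lowest 2 groups were only 1.15-fold apart in their means. Separate groups of 2 libraries are weak evidence of a difference, here and below. ENO1, a gene of the lists below, was separate between vorinostat and vehicle at a log2 fold change of -0.03. The reference genes GAPDH, ACTB and TBP were separate in that comparison too. The share of all tested genes with separate groups was not counted. The mean PLAU level was 58.9 ± 2.52 CPM under vehicle and 238.5 ± 15.4 CPM under EC359 (SD, n = 2). EC359 gave a log2 fold change of 2.02 (standard error, SE, 0.11), which is 4.05-fold, and vorinostat gave -1.1 (SE 0.11). Adding EC359 to vorinostat gave -0.20 (SE 0.11), which was not called. The interaction, which is the difference of these EC359 effects, was -2.22 on the log2 scale (SE 0.15). Counted from the lowest, it ranked 151 of the 13694 tested genes. PLAU in the combination was 9.98-fold below EC359 alone (log2 fold change -3.32, standard error 0.11). PLAU overlaps C10orf55 on the opposite strand, and no source used here gives the strand option of HTSeq. Whether reads where the 2 genes overlap were assigned to PLAU, to C10orf55 or to neither is therefore not known. C10orf55 had 3 to 25 reads in a library against 446 to 5518 for PLAU.

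PLAT, the other activator, was almost silent under vehicle and rose under vorinostat, and its combination libraries overlapped those of vorinostat. It lies on chromosome 8 from 42032236 to 42065227 (GRCh37). PLAT had 4 and 5 reads under vehicle, 22 and 15 under EC359, 87 and 96 under vorinostat, and 84 and 96 under the combination. In normalized CPM these were 0.189 and 0.234, 0.907 and 0.761, 4.48 and 4.08, and 4.30 and 4.90. The vorinostat and combination libraries overlapped and lay above all libraries without vorinostat, and the EC359 libraries lay above vehicle. The log2 fold change was 4.30 under vorinostat (SE 0.35) and 4.41 under the combination (SE 0.35). By reads, PLAT was 20.2-fold above vehicle under vorinostat, with a 95% interval from 10.4 to 44.8 (exact, counting error only). Between the combination and vorinostat the ratio was 1.08, with an interval from 0.874 to 1.33. Under EC359 the log2 fold change was 1.96 (SE 0.41). It was past the fold limit but not called, and it was called with no filter on low counts or without EC359 replicate 2. The level stayed low beside urokinase. PLAT made up 0.116% to 0.151% of the summed PLAU and PLAT level per length without vorinostat and 5.06% to 6.93% with it. These shares use merged exons as the length. With the longest transcript, PLAT under vorinostat was at 1.29 and 1.18 CPM per kilobase, beside 9.75 and 10.94 for PLAU, a larger share.

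PLAUR, the urokinase receptor, rose under EC359 with and without vorinostat and was not called under vorinostat alone. It lies on chromosome 19 from 44150247 to 44174699 (GRCh37). The libraries held 81.0 and 74.0 CPM under vehicle, 356.4 and 356.1 under EC359, 71.6 and 69.0 under vorinostat, and 282 and 266 under the combination. No groups overlapped, which is weak evidence with 2 libraries in each, and both groups with EC359 stood far above both groups without it. The log2 fold change was 2.20 under EC359 alone (SE 0.09) and 1.96 on adding EC359 to vorinostat (SE 0.09). These are 4.60-fold and 3.90-fold. Vorinostat alone gave -0.14 (SE 0.09), and vehicle and vorinostat, the lowest pair of groups, differed 1.102-fold in their means. The interaction was -0.24 (SE 0.12). The receptor can also be read against its ligand. The level per length of PLAUR was 0.807 to 1.04 times that of PLAU in the vehicle and EC359 libraries, 1.57 and 1.83 times under vorinostat, and 7.06 and 8.18 times under the combination. With the longest transcript in place of merged exons, it was 2.01 to 2.59 times in the vehicle and EC359 libraries, 3.92 and 4.56 times under vorinostat, and 17.6 and 20.4 times under the combination.

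**Figure D1:**
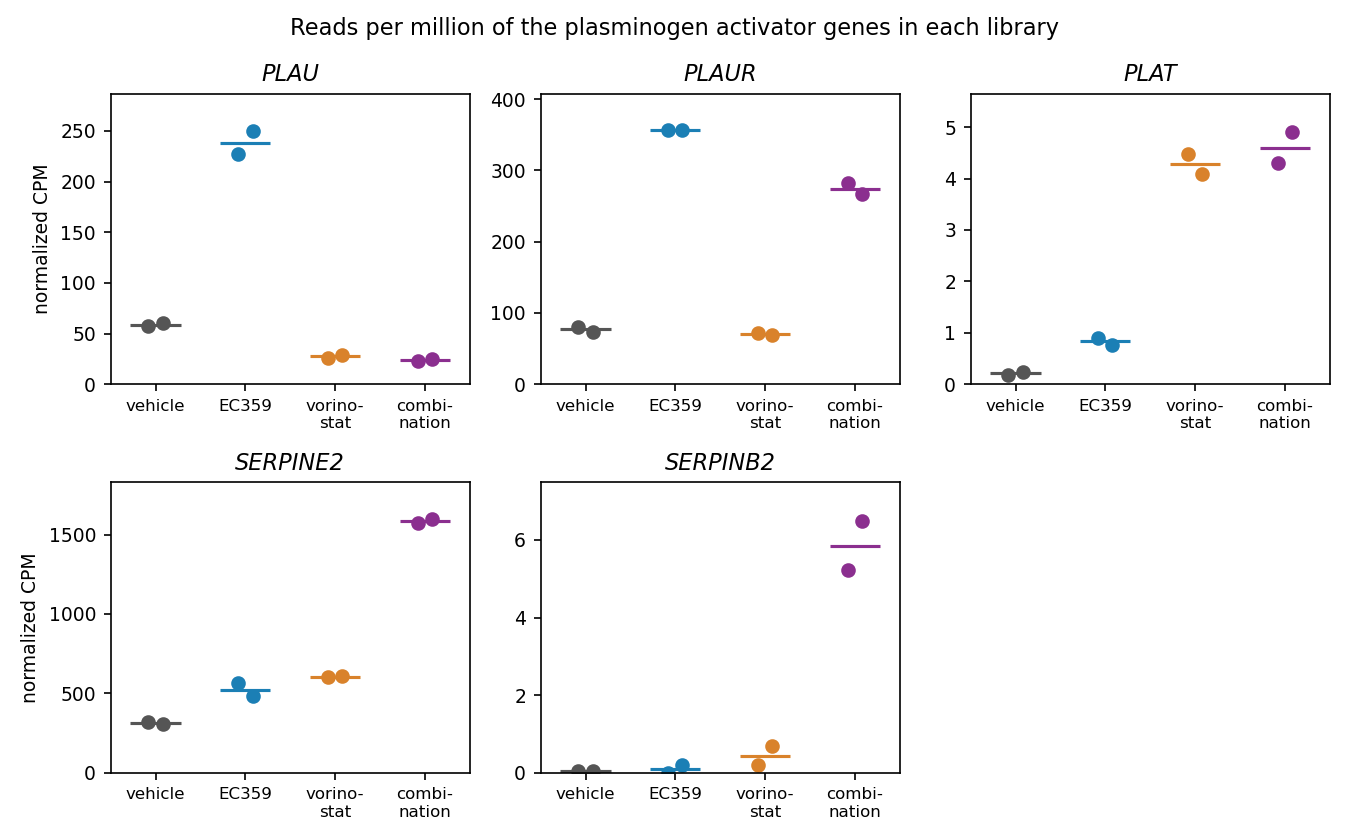
Normalized CPM, the reads of a gene scaled to a common library size (vertical axis, from 0) of PLAU, PLAUR, PLAT, SERPINE2 and SERPINB2 in each of the 8 libraries. Points are libraries and lines are means of 2 libraries. PLAU is highest under EC359 (227.5 and 249.4 CPM), PLAUR is high in both groups with EC359, and both serpins are highest in the combination.

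SERPINE2, also called protease nexin, was the member with the most reads, and it rose in the combination, whereas neither drug alone took it past the fold limit. It lies on chromosome 2 from 224839762 to 224904035 (GRCh37). Its normalized CPM was 322 and 308 under vehicle, 564 and 483 under EC359, 605 and 606 under vorinostat, and 1572 and 1600 under the combination. The groups did not overlap, which is weak evidence with 2 libraries in each, and EC359 and vorinostat were only 1.16-fold apart in their means. The log2 fold change was 0.73 under EC359 (SE 0.09), 0.94 under vorinostat (SE 0.09) and 2.33 under the combination (SE 0.09). On adding EC359 to vorinostat it rose by 1.39 (SE 0.09), which is 2.62-fold. The interaction of 0.66 (SE 0.13) was not past an adjusted p of 0.01. It was past it with DESeq2 and with a crossed replicate block, which was chosen after seeing the data, but not with the planned replicate block. With a library left out, the interaction ranged from 0.54 to 0.77.

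SERPINB2, the other urokinase inhibitor among the members, was read almost only in the combination. It lies on chromosome 18 from 61538926 to 61571122 (GRCh37), and its promoter stretch, shown above, is the one with both TGANTCA and TATAAA. The libraries held 1 and 1 reads under vehicle, 0 and 4 under EC359, 4 and 16 under vorinostat, and 102 and 127 under the combination. The combination stood far above all other groups, at 5.22 and 6.49 CPM, vehicle and EC359 overlapped, and the highest EC359 library (0.203 CPM) lay just under the lowest of vorinostat (0.206 CPM). The gene passed the filter on low counts through the group where it was high. Relative to the 2 reads under vehicle, the combination ratio was 125, with a 95% counting interval from 34.1 to 1036. The counting intervals of this gene pool the reads of the 2 libraries of a group and leave out the spread between them. The vorinostat libraries, for example, held 4 and 16 reads. Against vorinostat the ratio was 12.6, with an interval from 7.95 to 21.0, and the fitted log2 fold change was 3.66 (SE 0.59). This call was lost when any single vorinostat or combination library was left out, with fitted values from 3.05 to 4.75 over all left-out libraries. Under vorinostat alone the ratio to vehicle was 9.91, with an interval from 2.41 to 87.5, and the fitted difference was called without either EC359 library and at an adjusted p under 0.05, but not at the threshold used here.

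A gene was called where its adjusted p was under 0.01 and its log2 fold change beyond 1 in size. EC359 against vehicle had 2 of the 5 members, PLAU and PLAUR, both higher, where 3.67% of all tested genes were called, 1.94% higher and 1.72% lower. Vorinostat against vehicle had PLAT higher and PLAU lower, 2 of 5, where 30.1% of all genes were called, 16.8% higher and 13.3% lower. The combination against vehicle had all 5 members, with PLAU lower and the others higher, where 34.8% of all genes were called, 19.5% higher and 15.3% lower. The combination against vorinostat had 3 of 5, PLAUR, SERPINE2 and SERPINB2, all higher, where 4.25% were called, 3.37% higher and 0.876% lower. With total counts in place of TMM, 380 genes were higher and 182 lower in that comparison, against 462 and 120. The combination against EC359 had 4 of 5, with PLAU lower and PLAT, SERPINE2 and SERPINB2 higher, where 33.7% were called, 19.8% higher and 13.9% lower. For the interaction, called at an adjusted p under 0.01 alone, PLAU was the single member, where 2.10% of all genes were called, 1.62% higher and 0.482% lower. Since the members were chosen with these results known, nothing is read from these shares. The comparisons against vehicle share the same 2 vehicle libraries, and those of the combination share its 2 libraries.

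**Figure D2:**
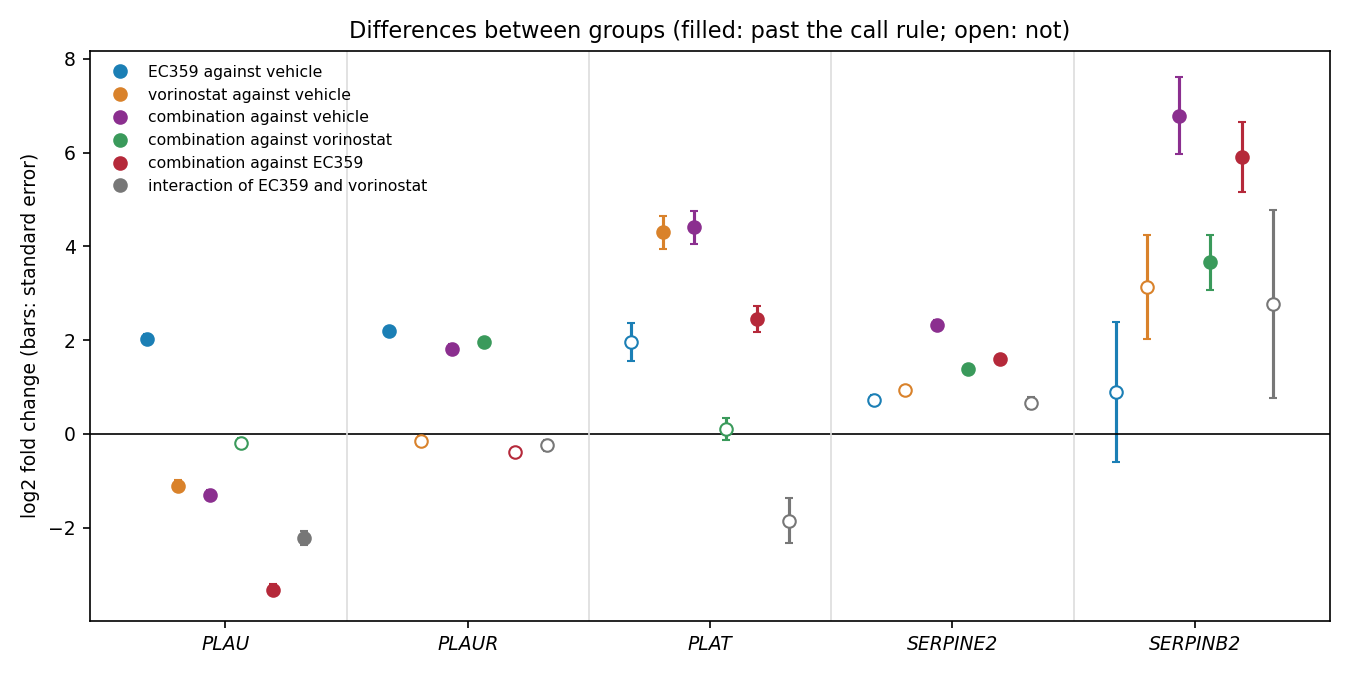
Log2 fold changes (vertical axis) of the 5 members in 6 comparisons, with bars for the standard error of the fit over all 8 libraries, which are smaller than the symbol for PLAU, PLAUR and SERPINE2 in most comparisons. Filled symbols are past the call rule and open symbols are not. PLAU runs from 2.02 under EC359 to -3.32 between the combination and EC359, PLAUR is near 2 wherever EC359 was added, and SERPINB2 has the widest bars.

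Levels of different genes were compared only per length, as CPM per kilobase of merged exons (FPKM). SERPINE2 was the highest member under vehicle, at 35.2 ± 1.09 FPKM (SD, n = 2), followed by PLAU at 19.97 ± 0.853 and PLAUR at 17.4 ± 1.105. Under EC359, PLAU at 80.9 ± 5.24 FPKM and PLAUR at 79.9 ± 0.0398 stood above SERPINE2 at 58.5 ± 6.43. In the combination SERPINE2 reached 177 ± 2.23 FPKM, PLAUR 61.5 ± 2.5 and PLAU 8.10 ± 0.515, with PLAT at 0.592 ± 0.0550 and SERPINB2 at 2.14 ± 0.327. The order depended on the length used. With the longest transcript in place of merged exons, PLAUR under EC359 became 221 FPKM and PLAU 89.7. As a description of how the members stood to each other, the summed FPKM of both activators was divided by that of SERPINE2 and SERPINB2. The ratio was 0.539 and 0.599 under vehicle and 1.23 and 1.57 under EC359. It was 0.1385 and 0.153 under vorinostat and 0.04675 and 0.0503 under the combination. The 4 groups did not overlap, which is weak evidence with 2 libraries in each. With the longest transcripts the values were 0.401 and 0.445, 0.911 and 1.165, 0.109 and 0.119, and 0.0371 and 0.0400 in the same order. SERPINE2 made up 98.7% to 98.9% of the sum of both serpins in the combination and at least 99.6% in every other library.

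**Figure D3:**
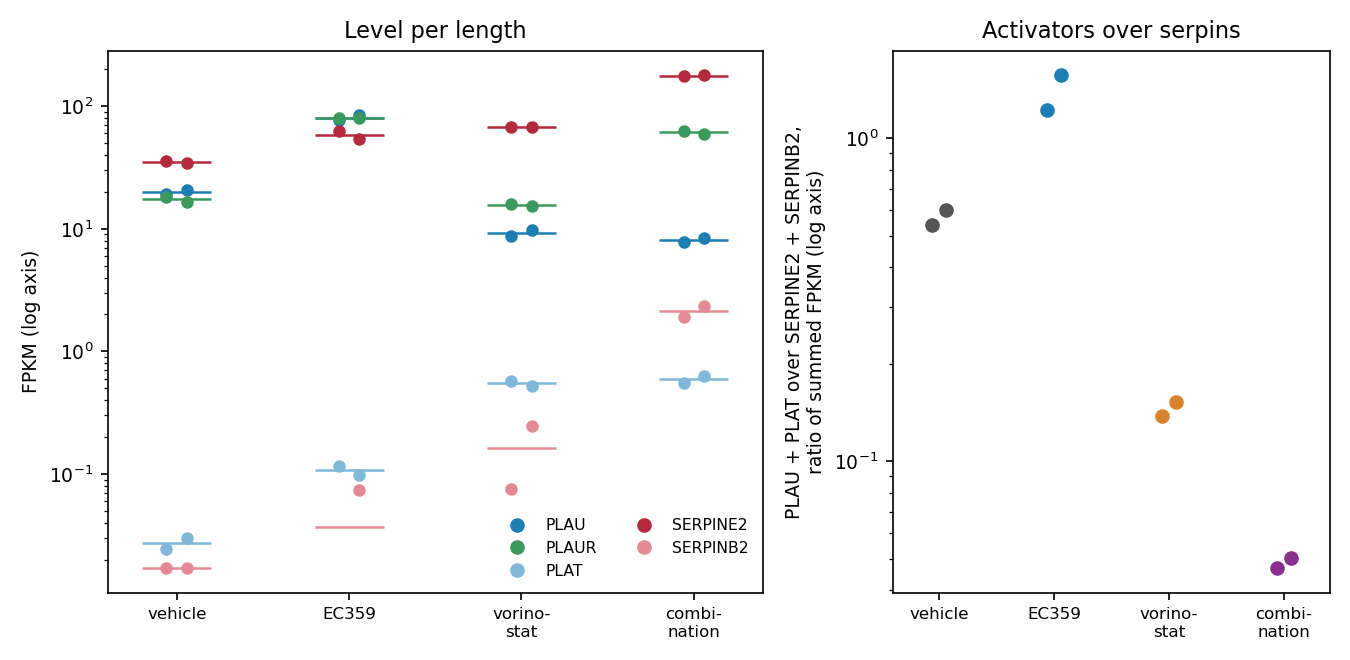
Left, level per length (FPKM, log axis) of the 5 members, with points for libraries and lines for means. A library of SERPINB2 with 0 reads under EC359 is not drawn. Right, summed FPKM of PLAU and PLAT over that of SERPINE2 and SERPINB2 in each library (log axis). With merged exons as the length, the ratio is above 1 only in the EC359 libraries (1.23 and 1.57) and lowest in the combination (0.04675 and 0.0503). With the longest transcripts it is 0.911 and 1.165 in the EC359 libraries.

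The genes most like each member were sought among 9975 or 9976 tested genes with an average log2 CPM of at least 3, as the root mean square difference of log2 CPM, centred on vehicle, over the 8 libraries. For PLAU these were SNTB1, a syntrophin adaptor (0.12), FST, the activin-binding protein follistatin (0.24), and RAI14, an actin-binding protein (0.32). SNTB1 had a log2 fold change of 1.95 with EC359, of -1.16 with vorinostat and of -1.16 with both, each against vehicle. For PLAUR they were UBASH3B, a phosphatase (0.20), ETV4, an Ets family factor (0.23), and C5orf41 (0.24). UBASH3B had log2 fold changes of 2.02, -0.18 and 1.52 in the same order. PLAT was nearest to LOC100134229 (0.25), HES7, a transcriptional repressor (0.36), and PLS1, an actin-bundling plastin (0.37). SERPINE2 was nearest to AGPAT9, an acyltransferase, TRIM25, a ubiquitin ligase, and ZCCHC6, a uridylyltransferase, each at 0.16. SERPINB2 had no near neighbour among the genes searched, the closest being the chemokine CXCL2 (0.71), then DMKN (0.81) and the pentraxin PTX3 (0.85). SERPINB2 and PLAT themselves averaged a log2 CPM of 0.71 and 1.35, below the limit for the genes searched. Counting error therefore enters their distances, which do not show an unusual pattern. The members were further from each other than from their nearest genes, with PLAUR and SERPINE2 the closest pair (0.95) and PLAU and SERPINB2 the most distant (3.77).

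Another 70 genes of the system were taken from general knowledge in 6 lists, and 44 of them passed the filter. The lists were chosen with earlier results of these data known, so nothing is read from their shares of called genes. Calls and adjusted p-values are from edgeR's quasi-likelihood test over all tested genes, corrected by the method of Benjamini and Hochberg. In EC359 against vehicle, 6 of the 44 were called (13.6%, against 3.67% of all genes), all higher. Those outside the naming rule, VLDLR and ITGA5, are named here after their values were seen. The 6 were the endocytic receptors VLDLR and LRP8, the integrin subunits ITGB3 and ITGA5, SERPINB8, and TFPI2, a Kunitz inhibitor of plasmin and other proteases. In vorinostat against vehicle, 10 were higher and 5 lower (34.1%, against 30.1% of all genes). In the combination against vehicle, 15 were higher and 4 lower (43.2%, against 34.8%), and on adding EC359 to vorinostat 6 were higher and 0 lower (13.6%, against 4.25%). Median log2 fold changes of the 44 genes were 0.48, 0.29, 1.08 and 0.07 in these comparisons, beside -0.02, 0.03, 0.07 and -0.01 over all tested genes. In the combination against vehicle, the medians of 5 of the 6 lists were -0.28 for plasminogen and its receptors, -0.02 for receptor partners and clearance receptors, 1.69 for pro-urokinase activating proteases and their inhibitors, 1.01 for the other serpins and 2.18 for coagulation genes. Of these lists 0 of 5, 4 of 16, 2 of 6, 5 of 6 and 5 of 7 tested genes were called, and the call of LRP1, at 1.01, was lost under 10 alternatives, among them DESeq2 and total counts.

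PLG, plasminogen itself, had a single read in all libraries together, and none of the 5 tested genes PLGRKT, ANXA2, S100A10, ENO1 and KRT8 was called in any of the 6 comparisons. SERPINI1 encodes neuroserpin, an inhibitor of tissue plasminogen activator. It had 0.614 and 0.234 CPM under vehicle, 0 and 0.152 under EC359, 13.8 and 14.7 under vorinostat, and 9.01 and 9.09 under the combination. With vorinostat it rose by 5.06 (SE 0.39, edgeR adjusted p = 5.7e-06). On adding EC359 to vorinostat it was -0.66 (SE 0.27, edgeR adjusted p = 0.10). Under EC359 alone, with 0 and 3 reads, it was -2.53 (SE 0.86, edgeR adjusted p = 0.081), and it was called without EC359 replicate 2 (edgeR adjusted p = 0.006).

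Of the receptor partners and clearance receptors, 16 were tested. LRP1, the receptor that takes up protease and serpin complexes, rose under vorinostat from 97.5 and 87.7 CPM to 211 and 235 CPM (log2 fold change 1.27, standard error 0.12, edgeR adjusted p = 1.8e-05). LRP8, a relative of LRP1, rose under EC359, with a log2 fold change of 1.27 (edgeR adjusted p = 1.2e-04), and fell with vorinostat, with -1.13 (edgeR adjusted p = 3.7e-05). ITGB3, the beta subunit of the vitronectin receptor, had 1.09 and 0.794 CPM under vehicle, 3.88 and 5.43 under EC359, 12.4 and 12.9 under vorinostat, and 14.5 and 15.7 under the combination. Its call in EC359 against vehicle was lost in a fit of those 2 groups alone (edgeR adjusted p = 0.016). LYPD3, a relative of the urokinase receptor, rose under vorinostat by 3.46 (SE 0.37, edgeR adjusted p = 4.1e-05) from 1.75 and 0.747 CPM to 13.7 and 13.9 CPM.

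Of the proteases that can activate pro-urokinase and their inhibitors, 6 were tested, and the lysosomal cathepsins CTSB and CTSL were the genes called on adding EC359 to vorinostat. CTSB had 2282 and 2285 CPM under vehicle, 4017 and 3984 under EC359, 3772 and 3626 under vorinostat, and 9991 and 10200 under the combination. It rose by 1.45 on adding EC359 to vorinostat (SE 0.07, edgeR adjusted p = 1.6e-06). CTSL rose by 1.70 in that comparison (SE 0.09, edgeR adjusted p = 5.1e-06), from 549 and 542 CPM to 1779 and 1771 CPM. Its log2 fold change under EC359 alone was 0.98 (SE 0.09), just under the fold limit, and it was past it in 6 alternatives.

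Of the other serpins, 6 were tested, and 1 rose and 3 fell under vorinostat, of which SERPINB8 (log2 fold change -1.1) was not called without vehicle replicate 2 (-0.93) or vorinostat replicate 1 (-1.05). SERPINH1, a collagen chaperone rather than a protease inhibitor, fell under vorinostat from 1395 and 1443 CPM to 169.8 and 175.4 CPM (log2 fold change -3.04, standard error 0.09, edgeR adjusted p = 1.0e-07). In the combination it was at 90.5 and 98.3 CPM. SERPINB8 rose under EC359 by 1.75 (SE 0.17, edgeR adjusted p = 1.8e-04) and rose by 2.69 on adding EC359 to vorinostat (edgeR adjusted p = 2.3e-05). SERPINB7 was higher by 1.57 on adding EC359 to vorinostat (SE 0.12, edgeR adjusted p = 4.1e-05) and lower by vorinostat alone, with a log2 fold change of -1.14 (edgeR adjusted p = 3.6e-05). SERPINB6 was at 122 and 113 CPM under vehicle and at 43.0 and 51.8 CPM under the combination (log2 fold change -1.31, edgeR adjusted p = 7.1e-06).

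**Figure D4:**
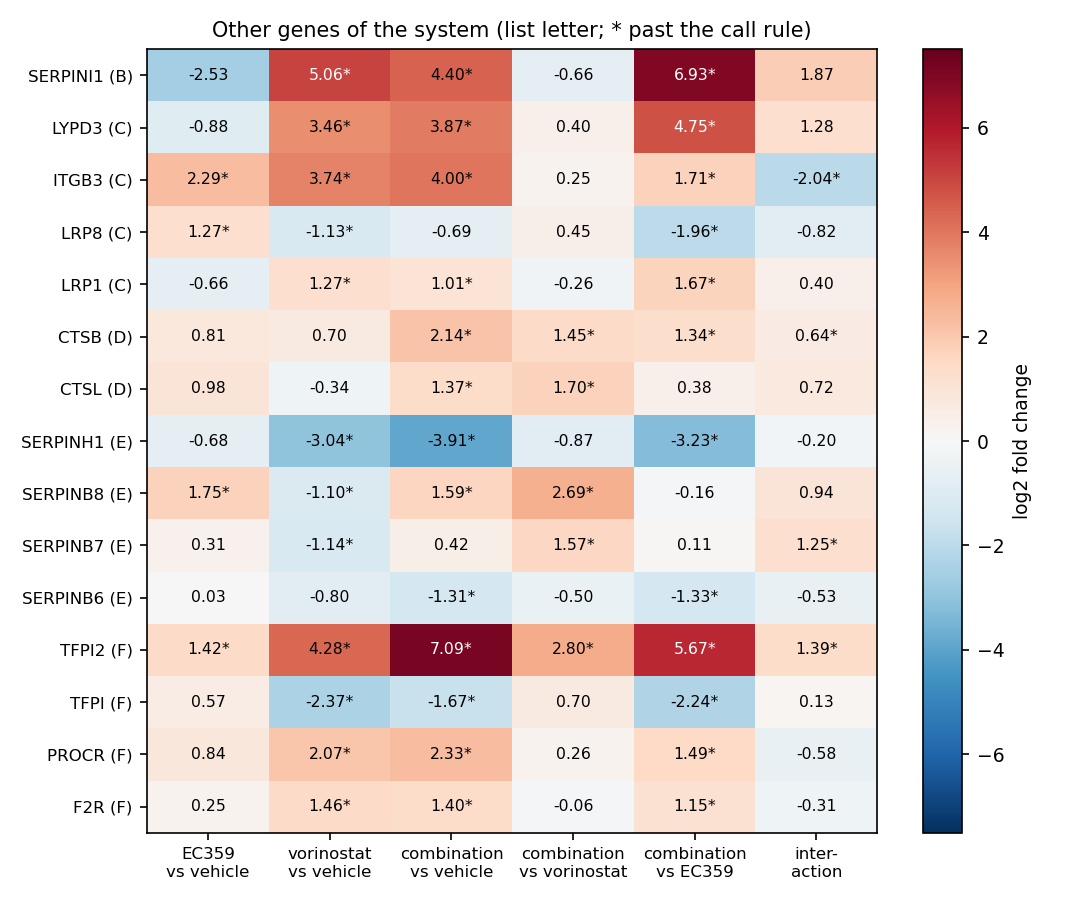
Log2 fold changes (colour and number) of 15 genes chosen by rule from the lists of inhibitors (B), receptor partners (C), pro-urokinase activating proteases (D), other serpins (E) and coagulation genes (F), in 6 comparisons. Stars mark values past the call rule. TFPI2 is called in all 6 comparisons, and SERPINH1 is the lowest, at -3.91 in the combination against vehicle.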

How the data were processed

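Per the labels and the paper's methods, RNA of BT-549 cells was sequenced as 50 bp single-end TruSeq reads. The authors used TopHat2 (2.0.8b in the submitters' processing notes) for alignment to hg19 and HTSeq for counting on RefSeq genes, and deposited raw read counts per gene symbol, without normalization. Read counts of the 5 HTSeq summary lines were left out of library sizes. Reads on no feature were 11.0% to 14.2% of unique alignments and ambiguous reads 0.649% to 0.850%. The HTSeq version and strand setting are not given in the sources used here.

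Genes were kept by filterByExpr of edgeR 4.0.16 (R 4.3.3), scaled by TMM and fitted with 1 mean per group over all 8 libraries in the quasi-likelihood model, with Benjamini-Hochberg adjustment over 13694 genes. Standard errors were derived from each log2 fold change and its F statistic, as size over root F. Calls needed adjusted p below 0.01 with a log2 fold change beyond 1 in size, and for the interaction the adjusted p alone. The members and lists were chosen with earlier results of these data known. Up to 4 called genes of each list with an average log2 CPM of at least 1 were named, by largest change. A gene of the lists is not reported here by name, although the counts over all lists include it. For each member the 3 most alike genes were named. A gene outside the rule was named after its values were seen. Of the 70 list genes, 2 were matched by an older symbol. Lengths and coordinates came from GENCODE on GRCh37, and promoter windows from RefSeq on GRCh38.p14. Alternatives were DESeq2 1.42.0, other scalings, filters, thresholds and fits, a replicate block, and leaving out each library. With a library left out, the single library of its group is taken to vary like the other groups. The fit was tested on simulated data with the same spread in all groups. The EC359 libraries here differed more than those of other groups, so that test does not measure errors in these data.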

Additional observations from a re-analysis of the deposited data

Results flagged for a closer look

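The effect of EC359 differed between cells with and without vorinostat, by the interaction term of edgeR's quasi-likelihood model, in 7 genes of the system. These were 1 of the 5 members and 6 of the 44 tested list genes (13.6%, against 2.10% of all tested genes). Members and lists were chosen with earlier results known, so nothing is read from these shares. The log2 effect of EC359 on PLAU was 2.02 without vorinostat and -0.20 with it, a difference of -2.22, given as a description because PLAU was chosen with this result known. ITGA5 had effects of 1.03 and -0.32, a difference of -1.35 (edgeR adjusted p = 5.6e-04). VLDLR had effects of 1.27 and 0.18, a difference of -1.08 (edgeR adjusted p = 0.0031). ITGB3 had effects of 2.29 and 0.25, a difference of -2.04 (edgeR adjusted p = 0.0075, and 0.014 when replicate numbers were blocked). In the other direction, TFPI2 had effects of 1.42 and 2.80, a difference of 1.39 (edgeR adjusted p = 1.7e-04), and SERPINB7 of 0.31 and 1.57, a difference of 1.25 (edgeR adjusted p = 0.0035). CTSB had effects of 0.81 and 1.45, a difference of 0.64 (edgeR adjusted p = 0.0047, and 0.012 with the block). The interactions of VLDLR, ITGB3, CTSB and SERPINB7 were not past the threshold when any single vehicle, vorinostat or combination library was left out (edgeR adjusted p from 0.017 to 0.079), and those of ITGA5 and TFPI2 were past it with each single library left out.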

How the results depend on the processing

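Over 16 alternatives at most, 459 of 473 log2 fold changes of the members kept their direction and their side of the call rule. The direction turned for SERPINB2 in EC359 against vehicle (-3.17 to 1.98 with a library left out, negative without EC359 replicate 2) and for PLAT in the combination against vorinostat (-0.03 to 0.16, negative without combination replicate 2). In neither was the difference called. Without a fold threshold, all genes called were 1071 (EC359), 7130 (vorinostat) and 7718 (combination) against vehicle, 1877 for the combination against vorinostat and 7642 against EC359, and pathway genes called were 13, 23 and, in the combination against vorinostat, 12. A fit of EC359 and vehicle alone called 233 genes.

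For the interaction, 713 genes were called with DESeq2 and 925 at an adjusted p under 0.05, each with 2 members and 11 pathway genes. Nothing in the labels says whether replicate numbers pair the samples. Correlations of deviations ranged from -0.173 to 0.231, which cannot decide it with 2 libraries in a group. With the replicate block 189 interactions were called, against 288 without it. A crossed replicate block, chosen after seeing the data, called 477 and 2 members.

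With a library left out, the genes called ranged from 298 to 924 (EC359 against vehicle), 285 to 730 (combination against vorinostat) and 56 to 1437 (interaction, lowest without combination replicate 1, highest without EC359 replicate 2). The members called ranged from 2 to 3, 2 to 3 and 1 to 2, and the pathway genes called from 6 to 9 for EC359, 13 to 21 for the combination against vehicle, and 2 to 14 for the interaction. With the longest transcript the mean FPKM of 2 libraries in the highest group was 89.71 for PLAU, 221.3 for PLAUR, 1.329 for PLAT, 264.8 for SERPINE2 and 2.716 for SERPINB2. With total counts this mean was 80.39 for PLAUR and 169.9 for SERPINE2. The cause of these shifts was not tested. Depth limits PLAT and SERPINB2, which had under 10 reads in each vehicle library.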

Other observations

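Genes of cell surface coagulation were taken from a list of 10, of which 7 were tested. This list was chosen with earlier results of these data known, so nothing is read from its share of called genes. Under vorinostat 4 were called higher and 1 lower (71.4%, against 30.1% of all tested genes, from edgeR). TFPI2, a Kunitz inhibitor of plasmin and of tissue factor complexes, had 25.6 and 25.3 CPM under vehicle, 69.0 and 67.1 under EC359, 501 and 491 under vorinostat, and 3466 and 3454 under the combination. The combination was a log2 fold change of 7.09 above vehicle (standard error, SE, 0.09, edgeR adjusted p = 8.4e-10). TFPI, its relative and the main inhibitor of tissue factor, stood at 51.2 and 53.6 CPM under vehicle, 77.73 and 77.76 under EC359, 9.26 and 11.0 under vorinostat, and 18.5 and 14.4 under the combination. It fell under vorinostat by 2.37 on the log2 scale (SE 0.15, edgeR adjusted p = 1.7e-06). PROCR, the endothelial protein C receptor, rose under vorinostat by 2.07 (SE 0.17, edgeR adjusted p = 6.8e-06). F2R, the thrombin receptor, rose by 1.46 (SE 0.29, edgeR adjusted p = 0.0018), a call lost without vehicle replicate 2 or vorinostat replicate 1 (edgeR adjusted p = 0.021 and 0.019).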
